A study of Caenorhabditis elegans with 8 samples.

Results

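Genes grouped by name as early embryonic genes were followed in feminised adult Caenorhabditis elegans. They were measured in immunoprecipitates (IPs) of the oocyte RNA-binding proteins OMA-1 and LIN-41 and in lysates of whole animals. The label comes from the names and not from these data, and RNA of some members was plainly present in these animals, as given below. The members were chosen by gene name alone. They comprised every gene of the deposited table whose name begins with sdz-, vet-, pes- or tbx-, and the named genes end-1, end-3, med-1, med-2, ceh-51 and hlh-26. In all, 61 of 16031 genes were members: 30 sdz, 3 vet, 8 pes and 14 tbx genes and these 6. No measured value enters that rule, but the group was proposed with results of these data known, so its direction is no independent evidence. The rule fits 75 names of the gene name list, and only those in the deposited table could be members. Among the names without a row there were hlh-25, hlh-27, hlh-28 and hlh-29.

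The 8 RNA-seq libraries came from 2 genotypes. The OMA-1 animals carried fog-1(q253ts), the mutation oma-1(zu405te33) and the transgene tnIs17, in which the oma-1 promoter drives OMA-1 fused to S, TEV and GFP sequences beside an unc-119(+) rescue. The LIN-41 animals carried fog-1(q253ts) and lin-41(tn1541), an endogenous lin-41 allele fused to the same kinds of tag. All animals thus carried fog-1(q253ts), which feminises the germ line at the 25 °C used for growth, were hatched and grown at that temperature and were collected as young adults about 48 hours after feeding began. Each genotype gave 2 IP libraries made with the antibodies 12A6 and 4C9, 1 library of lysate from which ribosomal RNA had been removed and 1 of untreated lysate. The labels list no such removal for the IPs.

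The embryo of C. elegans starts on maternal RNA, and its own transcription begins as the oocyte-to-embryo transition completes. The maternal factor SKN-1 then turns on med-1 and med-2, which encode GATA-type factors, and these act with it on end-1 and end-3 to make endoderm; in the neighbouring mesodermal lineage the homeobox gene ceh-51 is used. The hlh-25 to hlh-29 genes belong to the REF-1 family, whose early members answer to Notch signals, and T-box factors encoded by tbx genes pattern several embryonic tissues. The sdz genes take their name from zygotic transcripts that depend on SKN-1, vet stands for very early transcript and pes for patterned expression site. OMA-1 and LIN-41 keep maternal mRNAs translationally repressed in growing oocytes.

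Only pooled values were used, namely FPKM and log2 ratios. FPKM (fragments scaled to transcript length and between libraries) were given for the OMA-1 IPs, the LIN-41 IPs and the depleted lysates of both strains. The authors' log2 ratio of each IP to those lysates came with its adjusted p. No value therefore has an SD, the counts per library are unknown, and baseMean, a scaled mean read count over libraries, stands for depth. None of the 8 libraries is labelled as a mock or untagged IP, so binding and nonspecific carry-over cannot be told apart, nor can depletion and IP. In whole animals, fewer cells of a type and less RNA per cell cannot be told apart either. Had the FPKM columns been scaled to equal totals, the OMA-1 ratios would all change by -1.33 (log2) and the LIN-41 ratios by -0.95, so ratios near 0 have no sure sign. The members were thinly covered, with a median baseMean of 20.4 against 44.4 over all genes, and 21 of them had a baseMean under 10. No gene listed had a baseMean under 1.00, so levels and shares describe only genes with reads in some library, the IPs included.

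Members were scarce in the female lysates. By the authors' deposited table the median member had 1.18 FPKM in the depleted lysates, against 3.04 FPKM over all genes. Of the 61 members, 25 lay under 1 FPKM and 4 over 10 FPKM. The 8 oocyte marker genes ran from 135 to 981 lysate FPKM, and the sperm markers found in the table (3 of 8) from 0.13 to 0.66. Muscle markers (26.5 to 305) and intestine markers (2.07 to 1830) were present, as whole animals were lysed. In the IPs the authors' deposited table gave oocyte markers median log2 ratios of 2.11 with OMA-1 and 1.53 with LIN-41, muscle markers -0.94 and -1.41, and intestine markers -1.99 and -1.58. Hypodermis and neuron markers had negative medians with OMA-1 too. With LIN-41 their medians were 0.29 and 0.05, so not every somatic list was low in the LIN-41 IPs. Among members the order of lysate levels began with pes-9 at 93.0 FPKM, followed by tbx-9 at 21.5, vet-2 at 13.9 and tbx-36 at 13.5. The level of pes-9 lay at percentile 96.1 of all genes. Of the endomesoderm genes, ceh-51 had 3.77 FPKM in the lysates, above the medians of the members and of all genes. The others were at the low end, with end-3 at 0.45 FPKM, end-1 at 0.15 and med-1 at 0.03. The authors' deposited table listed med-2 and hlh-26 at 0.

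**Figure D1:**
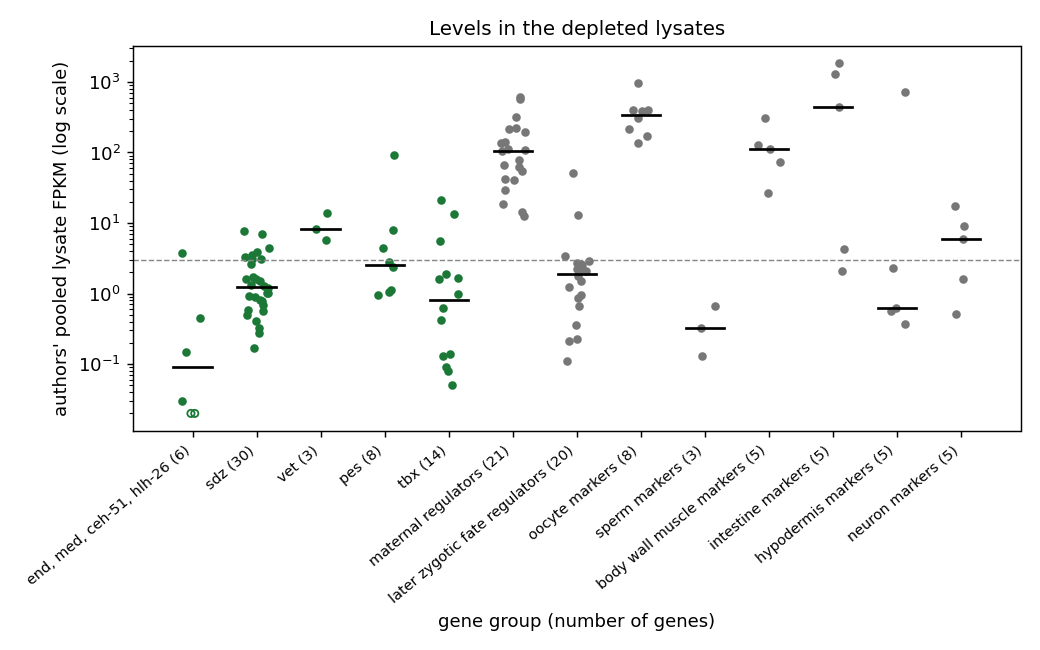
Authors' pooled FPKM in the depleted lysates (log axis) for the 5 name groups of members (green) and for lists of other genes (grey), with each list's median as a bar, values listed at 0 as open circles at the bottom and the median of all genes, 3.04 FPKM, as a dashed line. Member medians lie between 0.09 and 8.22 FPKM, the maternal regulators at 103 and the oocyte markers at 345.

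A subset of the members was strongly enriched with OMA-1, led by sdz-37, sdz-21, sdz-15, tbx-9 and tbx-33. With LIN-41 the highest were sdz-21, sdz-37 and sdz-15. A gene was called higher at an authors' adjusted p below 0.05, in a test that looked for enrichment only. By that rule 21 of 60 members tested (35.0%) were higher with OMA-1, against 28.4% of all genes tested. With LIN-41 13 of 54 members (24.1%) were higher, against 27.2% of all genes. By the share called, then, the group stood close to the background in both IPs, and a few members made up its extremes. That share depends on depth, which was lower for members than for all genes. The median log2 ratio of the members tested was 0.58 with OMA-1 (all genes -0.09) and -0.26 with LIN-41 (all genes -0.04). Over all 61 members the OMA-1 median was 0.54, and -0.80 with equal totals. With equal totals the OMA-1 calls of ceh-51, hlh-26, pes-5 (whose ratio turned negative), pes-8, sdz-5, sdz-32, tbx-8 and tbx-11 and the LIN-41 calls of end-3, sdz-7, sdz-36, sdz-38 and tbx-11 no longer passed.

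**Figure D2:**
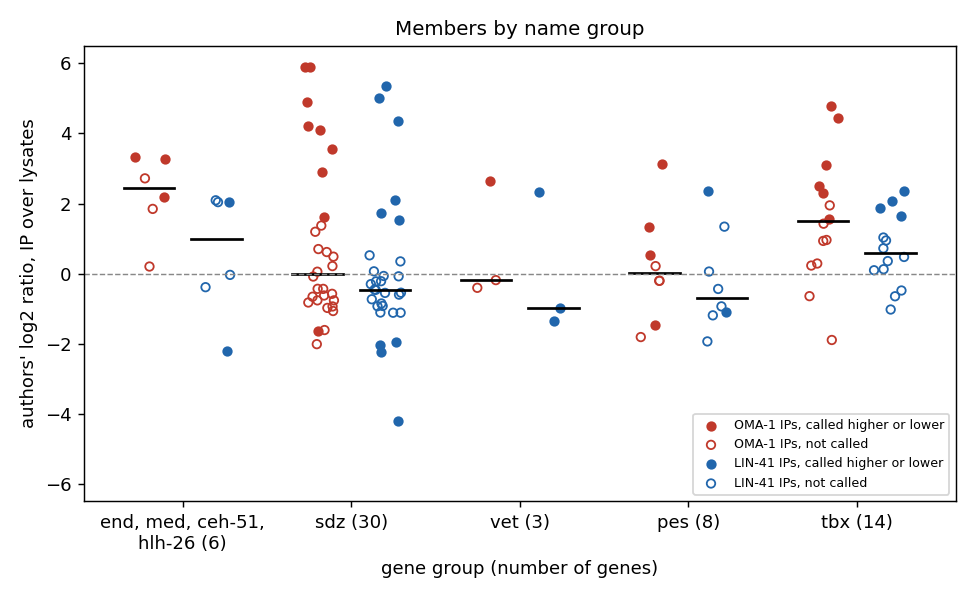
Authors' log2 ratios of the OMA-1 IPs (red) and the LIN-41 IPs (blue) to the pooled depleted lysates for the 61 members by name group, with filled points for members called higher or lower and black bars for medians. The sdz group spans -2.02 to 5.91 with OMA-1 and -4.21 to 5.35 with LIN-41, with a few members far above the rest.

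Of the endomesoderm genes, end-3 was called higher in each IP and ceh-51 only with OMA-1. The GATA factor gene end-3 (WBGene00001311, chromosome V 14014695 to 14015980 in WBcel235, plus strand) had 4.96 FPKM in the OMA-1 IPs, 2.07 in the LIN-41 IPs and 0.45 in the lysates. Its log2 ratio in the authors' deposited table was 3.26 with OMA-1 (adjusted p = 9.11e-08) and 2.05 with LIN-41 (adjusted p = 0.00204). Both IPs thus held more of it than the lysates, and the OMA-1 IPs more than the LIN-41 IPs by a margin that did not pass the test below. The partner gene end-1 lies 27621 bases away and stayed at the limit of detection. It had 0.19 FPKM in the OMA-1 IPs, 0.08 in the LIN-41 IPs and 0.15 in the lysates, and the authors' deposited table gave it no adjusted p. The homeobox gene ceh-51 (WBGene00013583, V 18874133 to 18875982) had 19.4 FPKM in the OMA-1 IPs, 0.66 in the LIN-41 IPs and 3.77 in the lysates. The OMA-1 value was the highest of the 3 pools and the LIN-41 value the lowest. The authors' deposited table gave ceh-51 a log2 ratio of 2.19 with OMA-1 (adjusted p = 0.00339) and -2.21 with LIN-41. The SE implied by that p was 0.70, against a median of 0.33 for genes of like baseMean, so the error of ceh-51 was larger than that of most genes at its depth.

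The med genes and hlh-26 rested on very few reads. The authors' deposited table gave med-1 0.46 FPKM in the OMA-1 IPs, 0 in the LIN-41 IPs and 0.03 in the lysates. The values of med-2 were 0.56 FPKM in the OMA-1 IPs, 0.30 in the LIN-41 IPs and 0 in the lysates. Both are marked by the authors for low-quality or multimapping reads, so reads of these near-identical single-exon genes may be split between them. Neither passed the enrichment test in the authors' deposited table, with adjusted p = 0.25 for med-1 and 0.061 for med-2 with OMA-1. The Notch-responsive family gene hlh-26 passed with OMA-1 (log2 ratio 3.32, adjusted p = 0.0195 in the authors' deposited table) at 0.70 FPKM in the OMA-1 IPs, 0.21 in the LIN-41 IPs and 0 in the lysates. Its baseMean of 2.24 gives this call little weight, and LIN-41 was not tested for it. No gene listed had a baseMean under 1.00. At 0 in the depleted lysates, hlh-26 and med-2 could be listed only through reads of other libraries. Their ratios to those lysates could hardly fall below 0, so the direction for hlh-26 is no independent evidence.

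The sdz genes fell into a small enriched set and a larger set near or below 0. Calls of higher RNA in the authors' deposited table numbered 8 of 30 with OMA-1 and 6 of 29 tested with LIN-41. These shares of 26.7% and 20.7% stand beside 28.4% and 27.2% of all genes, so the name group as a whole did not exceed the background. Its median log2 ratio was -0.02 for OMA-1 and -0.46 for LIN-41, or 0.21 and -0.17 with quantile normalization. With equal totals the medians were -1.35 and -1.41, with 6 genes higher and 13 lower for OMA-1, and 3 higher and 12 lower for LIN-41. The highest level was that of sdz-37 (WBGene00014064, II 10464870 to 10465298), a single-exon gene, with 208 FPKM in the OMA-1 IPs, 111 in the LIN-41 IPs and 3.34 in the lysates. In the OMA-1 IPs its log2 ratio was 5.91 in the authors' deposited table (adjusted p = 6.96e-173), and in the LIN-41 IPs it was 5.01 (adjusted p = 4.66e-121). Both IPs stood far above the lysates, the OMA-1 IPs higher. The next gene, sdz-21 (WBGene00018828, III 5654976 to 5657041), had 50.9 FPKM in the OMA-1 IPs, 34.7 in the LIN-41 IPs and 0.81 in the lysates. The authors' deposited table gave sdz-21 log2 ratios of 5.90 with OMA-1 and 5.35 with LIN-41, where no member was higher. For sdz-15 (WBGene00017752, III 6498476 to 6500110) the levels were 28.8 FPKM with OMA-1, 19.7 with LIN-41 and 0.88 in the lysates, and the log2 ratios in the authors' deposited table were 4.91 for OMA-1 and 4.37 for LIN-41. These 3 were the members called more than 16-fold higher with LIN-41.

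A further set of sdz genes was high with OMA-1 and only modestly so with LIN-41. By the authors' deposited table sdz-7 had 23.8 FPKM in the OMA-1 IPs, 3.60 in the LIN-41 IPs and 1.18 in the lysates (log2 ratios 4.21 and 1.54). The values of sdz-36 were 23.8 FPKM in the OMA-1 IPs, 4.48 in the LIN-41 IPs and 1.27 in the lysates (4.09 and 1.74). Those of sdz-38 were 10.2, 3.62 and 0.78 FPKM in the same pools (3.56 and 2.11). All 3 were called higher in each IP at adjusted p values of 0.00427 or less. The authors' deposited table called sdz-32 and sdz-5 higher with OMA-1 but not with LIN-41. In sdz-32 the OMA-1 IPs held 2.95 FPKM, the LIN-41 IPs 0.37 and the lysates 0.28 (2.90, adjusted p = 0.00319, and 0.35, adjusted p = 0.86). In sdz-5 the OMA-1 IPs held 5.06 FPKM, the LIN-41 IPs 0.85 and the lysates 1.59 (1.62, adjusted p = 0.000583, and -0.85). The LIN-41 level of sdz-5 was the lowest of its pools. The other 22 sdz genes were not called higher in either IP. Their log2 ratios in the authors' deposited table ran from -2.02 (sdz-6) to 1.37 (sdz-16) with OMA-1 and from -4.21 (sdz-6) to 0.52 (sdz-19) with LIN-41. One of them, sdz-29, is annotated as a pseudogene.

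Of the vet and pes genes, vet-2, pes-10 and pes-5 carried most of the signal. The authors' deposited table gave vet-2 (WBGene00016453, I 10846772 to 10850103) 87.7 FPKM in the OMA-1 IPs, 70.2 in the LIN-41 IPs and 13.9 in the lysates. Its log2 ratios were 2.65 (adjusted p = 2.02e-84) and 2.33 (adjusted p = 1.55e-64), so both IPs were well above the lysates and close to each other. The other vet genes, vet-1 and vet-6, were not called higher in either IP, with log2 ratios of -0.19 and -0.41 with OMA-1 and of -1.35 and -0.99 with LIN-41 in the authors' deposited table. The gene pes-10 (WBGene00003983, II 12846191 to 12847836), whose transcript is a classic mark of early embryonic transcription, had 21.5 FPKM in the OMA-1 IPs, 1.09 in the LIN-41 IPs and 2.38 in the lysates. The authors' deposited table gave pes-10 a log2 ratio of 3.13 with OMA-1 (adjusted p = 9.27e-24) and -1.10 with LIN-41, so that its IPs lay on opposite sides of the lysates. For pes-5 (WBGene00003979, II 11827930 to 11830020) the order was the reverse of most members: 11.6 FPKM in the OMA-1 IPs, 41.4 in the LIN-41 IPs and 7.94 in the lysates. Its log2 ratio in the authors' deposited table was 0.54 with OMA-1 (adjusted p = 0.0298), which turned to -0.80 with equal totals, and 2.36 with LIN-41 (adjusted p = 5.37e-27). Of pes-8, with 2.97 FPKM in the OMA-1 IPs, 0.56 in the LIN-41 IPs and 1.13 in the lysates, the log2 ratio of 1.34 with OMA-1 passed (adjusted p = 0.0166 in the authors' deposited table) and became 0.01 with equal totals. The abundant pes-9 passed neither test, at 80.6 FPKM with OMA-1, 96.8 with LIN-41 and 93.0 in the lysates. The remaining genes pes-1, which encodes a forkhead factor, pes-4, pes-7 and pes-23 were not called higher in either IP; the log2 ratio of pes-1 with LIN-41 was 1.34 (adjusted p = 0.13 in the authors' deposited table).

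T-box genes gave the highest level of any member in an IP, that of tbx-9. Of 14 in the authors' deposited table, 6 passed as higher with OMA-1, and 4 of 12 tested passed with LIN-41. These are 42.9% and 33.3%, beside 28.4% and 27.2% of all genes. The median log2 ratio over the 14 was 1.49 for OMA-1 and 0.60 for LIN-41, or 0.15 and -0.36 with equal totals. The gene tbx-9 (WBGene00006546, III 10340006 to 10341858), which acts with its neighbour tbx-8 in shaping the embryonic body, had 593 FPKM in the OMA-1 IPs, 89.8 in the LIN-41 IPs and 21.5 in the lysates. Its log2 ratio in the authors' deposited table was 4.78 with OMA-1 (adjusted p stored as 0) and 2.06 with LIN-41 (adjusted p = 4.98e-70). The OMA-1 level was the highest, the LIN-41 level between it and the lysates. The neighbour tbx-8, 5491 bases away, was far scarcer at 2.78 FPKM in the OMA-1 IPs, 0.86 in the LIN-41 IPs and 0.42 in the lysates, and passed only with OMA-1 (log2 ratio 2.51, adjusted p = 0.00056, against 0.94, adjusted p = 0.30, with LIN-41 in the authors' deposited table).

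The level of tbx-33 (WBGene00006552, III 11633216 to 11636840) was 121 FPKM with OMA-1, 28.2 with LIN-41 and 5.50 in the lysates, with log2 ratios of 4.44 and 2.34 in the authors' deposited table. That of tbx-36 (WBGene00006555, IV 11950570 to 11952208) was 116 FPKM with OMA-1, 42.1 with LIN-41 and 13.5 in the lysates, with log2 ratios of 3.11 and 1.64. Both genes followed the order of tbx-9. The authors' deposited table gave tbx-2, a regulator of pharyngeal muscle fate, 8.44 FPKM with OMA-1, 2.77 with LIN-41 and 1.67 in the lysates; its log2 ratio of 2.31 passed with OMA-1 (adjusted p = 1.89e-12), and that of 0.72 did not with LIN-41 (adjusted p = 0.065). Only tbx-11 among the called T-box genes was at least as high with LIN-41, at 4.91 FPKM in the OMA-1 IPs, 6.14 in the LIN-41 IPs and 1.63 in the lysates (1.55, adjusted p = 0.000238, and 1.87, adjusted p = 8.41e-06, in the authors' deposited table); the OMA-1 minus LIN-41 difference of -0.32 did not pass (adjusted p = 0.80). The genes tbx-37 and tbx-38, which are required for anterior pharynx in descendants of the first anterior cell, were near the lysate level, at 0.36 and 1.19 FPKM in the OMA-1 IPs, 0.41 and 0.60 in the LIN-41 IPs and 0.62 and 1.00 in the lysates. Neither was called, and tbx-7, tbx-31, tbx-32, tbx-39, tbx-40 and tbx-43 were not called either.

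**Figure D3:**
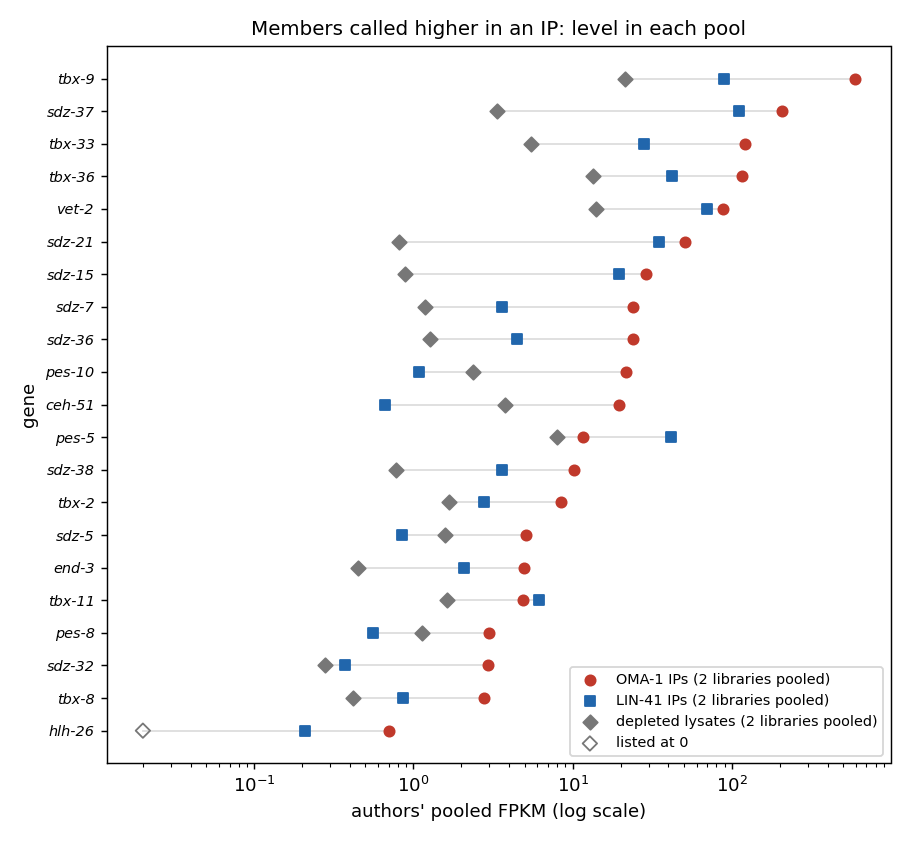
Authors' pooled FPKM (log axis) in the OMA-1 IPs, the LIN-41 IPs and the depleted lysates for the 21 members called higher in at least 1 IP, ordered by the OMA-1 level, with a lysate value listed at 0 drawn open at the left edge. The OMA-1 point lies right of the lysate point for every one of these genes, and the LIN-41 point lies left of it for pes-10, ceh-51, sdz-5 and pes-8.

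The IPs were next compared directly, as the OMA-1 log2 ratio minus that of LIN-41, so that the shared lysates drop out. Each protein was precipitated from its own genotype, while the lysates of both genotypes were pooled. A difference between the IPs and a difference in RNA level between the genotypes therefore cannot be told apart. Members that differed were higher with OMA-1, most of all ceh-51, pes-10, tbx-9 and sdz-7, with pes-5 as the exception. Over 54 members tested in both comparisons, 11 (20.4%) were higher with OMA-1, against 19.6% of all genes. Just 1 (1.85%) was higher with LIN-41, against 12.3% of all genes. The first share is that of the background and the second below it, and the median difference was 0.80 for members and -0.03 for all genes. The test is approximate, since its SE was worked back from the authors' adjusted p. That SE still counts the spread of the shared lysates, which cancels in the difference. On this count the errors and intervals below are too wide, and a difference that did not pass is no sign of equal levels.

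The difference was 4.40 ± 0.99 (approximate SE) for ceh-51 (adjusted p = 4.53e-05) and 4.23 ± 0.44 for pes-10 (adjusted p = 3.48e-21). It was 2.72 ± 0.16 for tbx-9, 2.67 ± 0.67 for sdz-7, 2.47 ± 0.63 for sdz-5 and 2.35 ± 0.69 for sdz-36. It was 2.28 ± 0.73 for pes-8, 2.09 ± 0.21 for tbx-33, 1.59 ± 0.47 for tbx-2 and 1.46 ± 0.21 for tbx-36. All of these passed at an adjusted p of 0.0065 or less. The difference of 0.90 ± 0.30 for sdz-37 passed too (adjusted p = 0.00963), but was 0.52 with equal totals and 0.28 with quantile normalization and then no longer passed. For pes-5 it was -1.83 ± 0.31 (adjusted p = 3.24e-08). For ceh-51, pes-10, sdz-5 and pes-8, whose LIN-41 ratios were negative, the OMA-1 SE stood in for that of LIN-41. Their RNA was scarcer in the LIN-41 IPs, so that SE may be too small. On that count the errors of these 4 differences may be too narrow.

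Some of the most enriched members did not differ detectably. The difference for sdz-21 was 0.55 (95% interval -0.18 to 1.28), for sdz-15 0.54 (-0.38 to 1.47) and for vet-2 0.32 (-0.06 to 0.70). For vet-2 a gap of 2-fold between the IPs thus lay outside the interval, while for sdz-15 and sdz-21 it did not. For end-3 the interval ran from -0.47 to 2.89, and for tbx-8 from -0.40 to 3.53, so these intervals do not exclude larger gaps. Wide intervals were common: of the 42 members that did not pass, 20 had an interval that reached more than 2 log2 units to either side of the value.

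**Figure D4:**
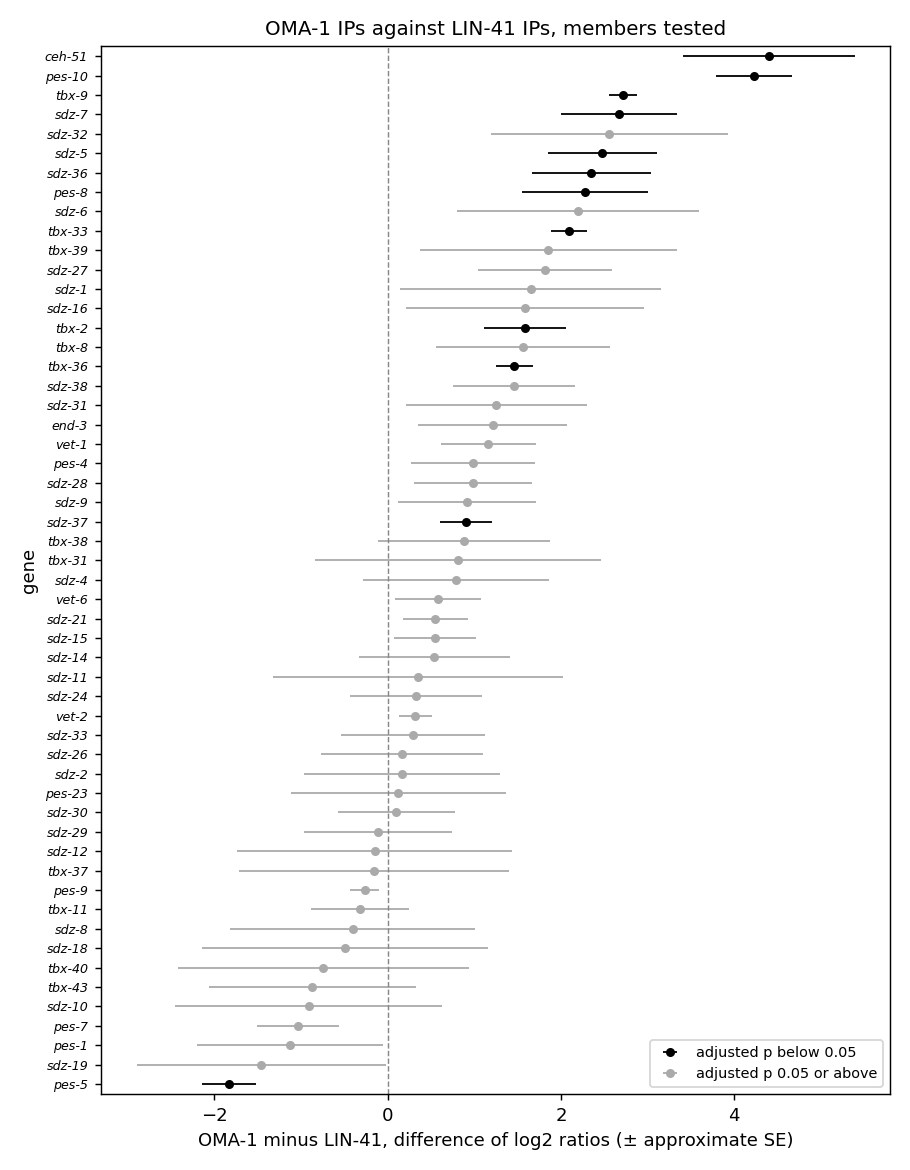
Difference of the log2 ratios, OMA-1 minus LIN-41, with its approximate SE for the 54 members tested in both comparisons, black where the adjusted p was below 0.05. Black points run from -1.83 (pes-5) to 4.40 (ceh-51), and most grey points have errors that reach or come near 0.

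How many members were lower in an IP than in the lysates depended on the scaling. By the approximate test 2 of 60 members (3.33%) were lower with OMA-1, against 18.7% of all genes, and 8 of 54 (14.8%) with LIN-41, against 13.9%. The SEs of this test grew as depth fell, and members had less depth than all genes, so these shares are not strictly comparable. With equal totals 21 members were lower with OMA-1 and 23 members with LIN-41. The members lower with OMA-1 were pes-7 (log2 ratio -1.48) and sdz-24 (-1.63) in the authors' deposited table. Those lower with LIN-41 were sdz-6 (-4.21), sdz-27 (-2.25), ceh-51 (-2.21), sdz-28 (-2.05), sdz-24 (-1.96), vet-1 (-1.35), pes-10 (-1.10) and vet-6 (-0.99). The RNA of sdz-6 was at 0.63 FPKM in the OMA-1 IPs, listed at 0 in the LIN-41 IPs and at 3.05 in the lysates. The lower calls of ceh-51 and pes-10 used their OMA-1 SE, which may be too small for LIN-41. All other calls of lower RNA took their SE from genes of like baseMean. Without that source only ceh-51 and pes-10 were left for LIN-41 and none for OMA-1. That setting cannot check the other calls, as such an SE needs a ratio above 0 in at least 1 IP. Of 38 members with one for OMA-1, only 2 had a log2 ratio below 0.

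The maternal regulators that set up the zygotic program, a list of 21 genes chosen with results known, were abundant, and most passed as enriched in each IP by the authors' test. Their median lysate level in the authors' deposited table was 103 FPKM, and 17 were called higher with OMA-1 and 18 with LIN-41, with median log2 ratios of 2.06 and 1.54. These counts are 81.0% and 85.7% of the list, beside 28.4% and 27.2% of all genes. With equal totals 12 were higher and 5 lower for OMA-1, and 15 higher and 3 lower for LIN-41, with medians of 0.73 and 0.59. Quantile normalization gave 11 higher and 8 lower for OMA-1, and 14 higher and 1 lower for LIN-41, with medians of 1.13 and 0.81. The mRNA of skn-1, named here because the sdz genes take their name from it, had 462 FPKM in the OMA-1 IPs, 115 in the LIN-41 IPs and 61.6 in the lysates (log2 ratios 2.90 and 0.90). The highest with OMA-1 were the Wnt ligand gene mom-2 (5.95) and zif-1 (5.25), the gene of a ubiquitin ligase subunit, and the lowest were the beta-catenin genes wrm-1 (-0.50) and sys-1 (-0.44). With LIN-41 the highest were spn-4 (6.21), an RNA-binding protein gene, and zif-1 (5.27), and the lowest were pop-1 (-0.37), the TCF factor gene, and taf-4 (-0.03), a general transcription factor gene. By the approximate test 9 of these genes (42.9%) were higher with OMA-1 in the direct comparison, beside 19.6% of all genes, and 6 (28.6%) with LIN-41, beside 12.3%.

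Genes that specify embryonic tissues at later stages resembled the members in their low lysate level. Of 22 such genes listed, 20 were in the table, with a median of 1.91 FPKM in the lysates. Of 19 tested in the authors' deposited table, 7 passed as higher with OMA-1, and 8 with LIN-41, with medians of 0.34 and 0.02 over the genes tested. These counts are 36.8% and 42.1%, beside 28.4% and 27.2% of all genes. Over all 20 the medians were 0.36 and 0.17. With equal totals the medians were -0.98 and -0.79, with 6 higher and 7 lower for OMA-1, and 4 higher and 6 lower for LIN-41. The REF-1 family founder ref-1 was the highest in each IP, at 157 FPKM with OMA-1, 28.98 with LIN-41 and 2.59 in the lysates (log2 ratios 5.90 and 3.46). Next came hnd-1 with OMA-1 (4.04) and hlh-3 with LIN-41 (3.26), both encoding bHLH factors. The lowest with OMA-1 were the muscle factor gene unc-120 (-1.30) and pha-4, the pharynx selector gene (-0.42). The lowest with LIN-41 were php-3 (-1.54), a posterior Hox gene, and elt-7 (-1.47), a gut GATA factor gene that acts downstream of the end genes. In the direct comparison 5 of these genes (26.3%, beside 19.6% of all genes) were higher in the OMA-1 IPs and 1 (5.26%, beside 12.3%) in the LIN-41 IPs.

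The deposited table also holds ratios to lysate from an older OMA-1 experiment. In it, the authors' deposited table gives log2 ratios of 6.23 for sdz-37, 6.26 for sdz-21, 5.36 for tbx-9, 4.91 for tbx-33, 4.77 for sdz-15, 4.28 for sdz-7, 4.09 for sdz-36, 3.32 for end-3, 2.55 for pes-10 and 1.86 for ceh-51. The ratios of the present OMA-1 IPs for these genes stand above. As both sets were divided by lysate values, no measure of likeness is given. Among the members called higher with OMA-1, the lowest older value was 0.35 (pes-8).

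A comparison of dissected gonads from another study, fem-3(q96gf) gonads that make sperm over fog-2(q71) gonads that make oocytes, measures germ line RNA without an IP. Members leaned to the oogenic side. Of 44 members with a value in the authors' deposited table, 7 (15.9%) were higher in spermatogenic gonads, against 27.6% of all genes, and 20 of 44 (45.5%) were lower there, against 28.2%. The median log2 ratio was -1.89 for members and 0.12 for all genes. Among the members called higher with OMA-1, 13 of 17 with a value were lower in spermatogenic gonads at an adjusted p below 0.05. The same share among all genes called higher with OMA-1 was not computed, so this is not shown to be particular to members. The log2 ratio in the authors' deposited table was -8.08 for vet-2, -7.24 for tbx-11, -6.78 for sdz-37, -6.33 for sdz-36, -6.31 for tbx-9, -6.25 for tbx-36, -5.60 for sdz-21 and -5.16 for pes-5. It was 1.30 for end-3 and 1.13 for tbx-2, which were thus higher in spermatogenic gonads (adjusted p = 0.0015 and 0.000925). For ceh-51 the ratio of -1.29 did not pass (adjusted p = 0.24), and pes-10 had no value.

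The members lay on all 6 chromosomes, 18 on II and 15 on III, and their median exonic length of 1149 bases was near the 1302 bases of all genes. By position 8 members had another member within 10000 bases: sdz-9 and sdz-10, sdz-28 and sdz-29, tbx-8 and tbx-9, and tbx-39 and tbx-40. Levels in the OMA-1 IPs in the authors' deposited table were 593 FPKM for tbx-9 and 2.78 for tbx-8, 2.38 for sdz-9 and 0.26 for sdz-10, 2.09 for sdz-28 and 1.90 for sdz-29, and 0.70 for tbx-39 and 0.18 for tbx-40. Only sdz-28 and sdz-29 of these neighbours were at nearly the same level. Exons of 8 members overlap exons of another gene by 3 to 72 bases, among them end-3 (3 bases, opposite strand). As the strand setting of the counting is not given in the sources used here, reads in those bases cannot be assigned.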

How the data were processed

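The members and gene lists were chosen with earlier results of these data known. Per the submitters' processing notes, the tools were DESeq2 1.12.3, SAMtools 1.0, STAR 2.4.2a and Trimmomatic 0.32 and the build WBcel235, without their roles. The counter, its annotation and its strand setting were not given in the sources used here. Per the file headers, the authors deposited log2 ratios of each IP to the pooled depleted lysates, Benjamini-Hochberg adjusted p-values, FPKM pooled by kind of library, and baseMean, a mean read count signal over samples. Ratios not above 0 all had an adjusted p of 1 or none. A further 4 columns of other studies were not used. Below a baseMean of 10 the deposited log2 ratio was a median of 0.73 times the log2 FPKM ratio in size for each IP, so low genes look less changed.

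Library totals are unknown, and no test on libraries could be made. The adjusted p was turned back into a one-sided p, a Wald z and an implied SE. Where this gave none, the other IP's SE for that gene was used, or else the percentile 95 of the SEs of 201 genes closest in baseMean. Normal tests for lower ratios (one-sided) and for OMA-1 minus LIN-41 (two-sided) were adjusted by Benjamini-Hochberg over all genes tested. These steps were run on simulated ratios drawn with the same implied SEs and independent errors for the IPs. Such a run cannot show whether those SEs are right. Whether IP libraries came from separate cultures is not stated, so p-values may measure technical spread. Values are given in full for members called and for the genes named singly in the rule; lists give their 2 highest and 2 lowest ratios. Other scalings, thresholds, filters, SE sources, pseudocounts and member sets were tried. Gene positions come from the Ensembl WBcel235 annotation (61 of 61 members matched). Python 3.11.15, pandas 2.3.3 and scipy 1.17.1 were used.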

Additional observations from a re-analysis of the deposited data

Results flagged for a closer look

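In 4 members the log2 ratios to the same lysates lay on opposite sides of 0 for OMA-1 and LIN-41, and their difference passed the approximate test: the homeobox gene ceh-51, the early embryonic transcript pes-10, sdz-5 and pes-8. OMA-1 minus LIN-41, it was 4.40 for ceh-51, 4.23 for pes-10, 2.47 for sdz-5 and 2.28 for pes-8. Of their LIN-41 ratios, those of ceh-51 (-2.21) and pes-10 (-1.10) passed the test for lower RNA, and those of sdz-5 (-0.85) and pes-8 (-0.94) did not. In each of the 4 the OMA-1 SE stood in for that of LIN-41. Their RNA was scarcer in the LIN-41 IPs, so that SE may be too small. Here too, IP and genotype cannot be told apart.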

How the results depend on the processing

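No paired analysis was possible because no value for a single library was used; leaving out a library was likewise not run. With equal FPKM totals, 13 members were higher with OMA-1 and 8 with LIN-41, 21 were lower with OMA-1 and 23 with LIN-41, 3 were higher with LIN-41 than OMA-1, the medians became -0.80 and -1.17, and pes-5 turned to -0.80 with OMA-1. Quantile normalization gave 2 members higher with LIN-41 than OMA-1 and medians of 0.75 and 0.071, where the median before was 0.54 for OMA-1 and -0.22 for LIN-41. With a baseMean of at least 10, 4 members were lower with OMA-1 and the LIN-41 median was -0.49. Without the tbx genes, 7 were higher with OMA-1 than LIN-41, and the medians were 0.21 and -0.44. With SEs from the gene's own p-values in either comparison alone, 0 members were lower with OMA-1 by the normal test (1 at an unadjusted p below 0.05) and 2 with LIN-41. Genes with no ratio above 0 in either IP drop out under that setting, so it is no check of their calls. An alternative chosen after seeing the data, without members that share reads or exons, left 1 lower with OMA-1. A pseudocount of 1 FPKM moved the medians to 0.14 and -0.067. The cause was not tested. Of calls on single members, 13 no longer passed and 1 reversed with equal totals, and 2 no longer passed with quantile normalization. Depth is a limit, as 21 members had a baseMean under 10.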
